A study of Homo sapiens with 4 samples.

Results

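Genes of SR proteins, of the kinases that phosphorylate them and of their RS-domain partners were examined for skipped exons in a human breast cancer line and its lung-metastatic derivative. The set held 32 genes, chosen by name: the SR protein genes SRSF1 to SRSF12, TRA2A and TRA2B, the kinases CLK1 to CLK4, SRPK1 and SRPK2, the exon junction and coactivator proteins SRRM1, SRRM2, ACIN1, PNN and RNPS1, and the RS-domain proteins RSRC1, RSRC2, SREK1, SCAF4, SCAF8, SCAF11 and ZRANB2. A skipped exon belonged to a gene when it lay inside it on the same strand in GENCODE release 29. This gave 91 exons in 29 genes, of 37641 exons listed in all, and none was listed for SRSF5, SRSF8 or SRSF12. Of these, 71 exons in 27 genes had 10 or more reads telling inclusion from skipping in each line and could be compared, of 12981 such exons overall.

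The groups were MDA-MB-231, a triple-negative breast cancer line called parental here, and MDA-LM2, called LM2, a line derived from it by selection for growth in the lung of mice. Both were untreated and kept in the same DMEM-based medium with serum, and total RNA went through DNase on the column and into ScriptSeq v2 libraries. The labels name 2 samples per line without saying whether they were separate cultures, and the deposited files hold 1 table per line with no replicate values. No difference between the lines therefore has a replicate check, and with 1 derivative line, what is particular to it and what goes with metastasis cannot be told apart.

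SR proteins carry an RNA recognition motif and a tail rich in arginine and serine, the RS domain, and bind purine-rich enhancers in exons to promote their splicing. CLK kinases in the nucleus and SRPK kinases mainly in the cytoplasm phosphorylate the RS domain and so govern where the proteins reside and what they bind. Most SR protein genes hold a poison exon, often overlapping an ultraconserved element, whose inclusion brings a premature stop codon and sends the transcript to nonsense-mediated decay. Through this exon many SR proteins limit their own amount, and a poison exon seen at a low level in steady-state RNA may be spliced in more often than the level shows.

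The stop codons that define poison exons are shown for SR protein genes with a well covered one, for SREK1, and, last, for a ZRANB2 exon that ends a coding sequence and differed between the lines. Each sequence runs 5′ to 3′ from the first base of the exon to the first stop codon in the frame of the upstream coding exon, with that stop in capitals, and comes from GENCODE release 29 transcripts in hg38.
SRSF3 exon of 456 nt, chr6:36599821-36599854, forward strand: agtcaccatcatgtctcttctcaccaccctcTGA
SRSF4 exon of 195 nt, chr1:29160018-29160058, reverse strand: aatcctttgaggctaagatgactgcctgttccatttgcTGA
SRSF6 exon of 268 nt, chr20:43459153-43459304, forward strand: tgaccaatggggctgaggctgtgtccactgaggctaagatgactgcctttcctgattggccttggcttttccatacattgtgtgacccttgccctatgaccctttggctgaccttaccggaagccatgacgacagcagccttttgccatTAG
SRSF7 exon of 449 nt, chr2:38749319-38749346, reverse strand: gtttcttcgtttgagtcagtcgcctTGA
SRSF11 exon of 117 nt, chr1:70231859-70231908, forward strand: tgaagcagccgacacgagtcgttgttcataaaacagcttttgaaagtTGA
SREK1 exon of 124 nt, chr5:66158809-66158912, forward strand: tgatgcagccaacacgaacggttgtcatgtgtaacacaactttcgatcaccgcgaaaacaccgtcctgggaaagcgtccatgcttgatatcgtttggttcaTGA
TRA2B exon of 276 nt, chr3:185931772-185931852, reverse strand: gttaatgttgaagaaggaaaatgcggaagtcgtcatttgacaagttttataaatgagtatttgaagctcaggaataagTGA
ZRANB2 exon of 75 nt, chr1:71065719-71065752, reverse strand: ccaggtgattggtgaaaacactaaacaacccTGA
The frame closed early in the exons of SRSF3, SRSF4 and SRSF7 and only after most of the exon in SREK1. In SRSF4 and SRSF6 the printed stretches share tgaggctaagatgactgcct, a run of 20 nt that starts at base 8 of the SRSF4 exon and base 29 of the SRSF6 exon. Over 262 pairs of poison exons of different member genes, leaving out exons longer than 1000 nt, the longest shared run had a median of 7 nt and a 95th percentile of 10 nt, and 3 pairs shared 15 nt or more. Of those 3, 2 are the same match, since the overlapping SRSF4 exons of 195 and 228 nt share it with SRSF6. The third pair, an SRSF3 exon of 98 nt and an SRSF7 exon of 69 nt, shared 15 nt, and both exons were at 0.01 or less. That SRSF7 exon also shared 12 nt with the 178-nt exon of RSRC1. The exons of SREK1 and SRSF11 shared 14 nt, and those of TRA2A and TRA2B shared gaagaatgaaga, a run of 12 nt rich in purines. Purines made up 67.4% of the TRA2B exon and 68.4% of the TRA2A exon of 301 nt, against a median of 50.2% over the poison exons of the set and 51.9% over all compared exons.

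Depth set the precision of what follows. Reads that fit at least 1 isoform of an event summed to 17366605 in LM2 and 21716937 in parental cells, and those that tell inclusion from skipping to 5656778 and 6631215. The exons of the set were better covered than most, with a median of 257 such reads in LM2 and 289 in parental cells, against 74 and 93 over all compared exons. The interval deposited with each level had a median width of 0.055 in the set and 0.105 over all exons, whose confidence level the files do not state. The best covered event of CD44, a marker of this line, held 38259 reads in LM2 and 54542 in parental cells and that of EGFR 897 and 539, while ESR1, PGR, CDH1 and the leukocyte gene PTPRC held 13 reads or fewer, and VIM, KRT18, EPCAM, PECAM1, COL1A1 and COL1A2 had no event listed in both lines.

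Few exons of the set differed between the lines. The Bayes factor of the authors' deposited table weighs the evidence for a difference against none, and is not the odds that an exon changed. A call needed this factor to reach 10 and inclusion to differ by 0.2 or more. By this rule 2 of 71 exons changed, RSRC1 up and ZRANB2 down in LM2, beside 1.26% of all exons compared. With a difference of at least 0.1, ACIN1 rose and SRSF10 fell as well, making 4 of 71 beside 2.1% of all exons. The same 4 exons were those whose deposited intervals did not overlap between the lines, beside 3.24% of all exons. Over the 71 exons the difference was above 0 in 28, 0 in 19 and below 0 in 24, with a median of 0 as over all exons. The plot of LM2 against parental levels shows this narrow spread.

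**Figure D1:**
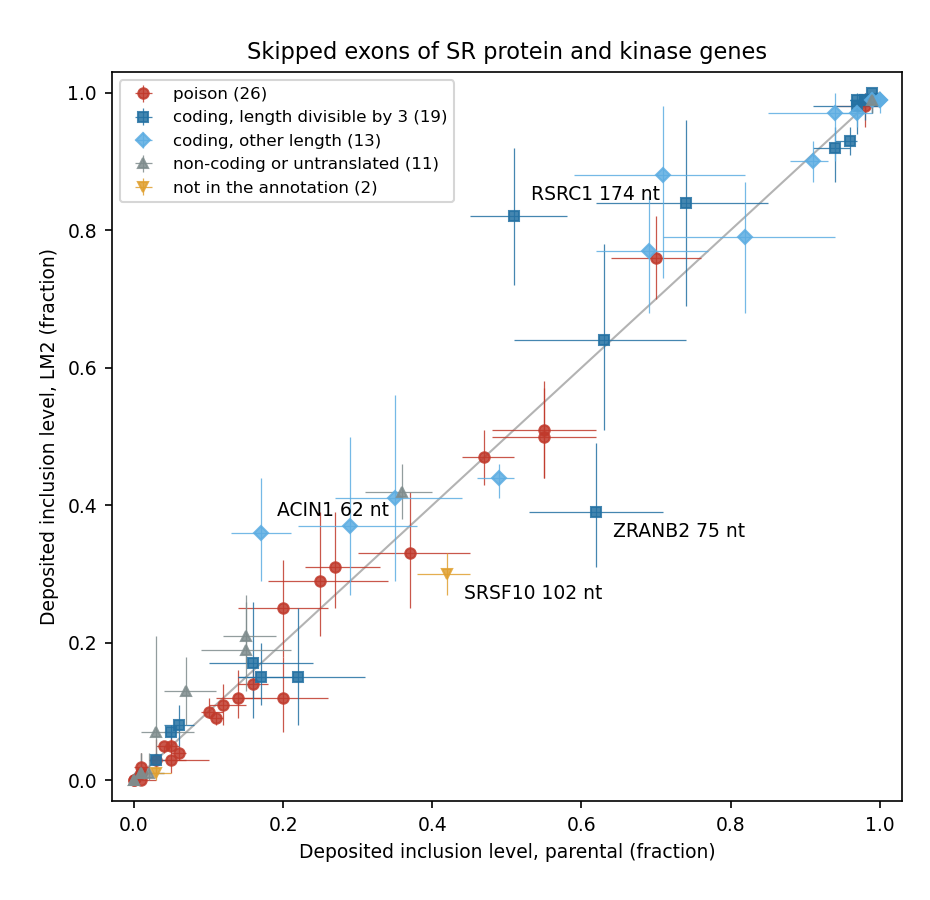
Deposited inclusion level of the 71 compared exons, as a fraction, in parental cells (horizontal axis) and LM2 (vertical axis), marked by class of exon, with bars for the deposited intervals. The 4 exons labelled by gene and length are those past a difference of 0.1 whose Bayes factor reached 10, and the largest differences were 0.31 in RSRC1 and -0.23 in ZRANB2.

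Many of the exons were alternative in these cells. The parental level lay between 0.1 and 0.9 in 32 of 71 exons, or 45.1%, beside 42.9% of all exons, with 22 exons below 0.1 and 17 above 0.9. An exon was called poison when it matched no coding exon of a protein-coding transcript and closed the frame of the upstream coding exon. By this rule 26 of 71 exons, or 36.6%, in 15 genes were poison exons, beside 23.4% of all exons. The rule does not require an annotated decay transcript. No such transcript held the exact poison exons of TRA2A (312, 301 and 90 nt) or SRSF11 (33 nt). The same was true of those of RSRC2 (187, 108 and 124 nt) and of the 2868-nt exon of SREK1. Leaving out poison exons that overlap coding sequence, a setting chosen after seeing the data, left 23. Their parental levels reached 0.55 and their differences ran from -0.08 to 0.05. No poison exon of the set passed either difference with the Bayes factor, and their differences ran from -0.08 to 0.06. Among the 3035 poison exons compared in all genes, 21 rose and 4 fell at the larger difference. At the smaller difference 32 rose and 8 fell. Calls were thus rare among poison exons of all genes, and their absence among 26 does not set these exons apart.

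TRA2B, a splicing activator that binds GAA-rich enhancers, had one of the most included poison exons of the set. Its 276-nt exon, chr3:185931577-185931852, was at 0.47 (deposited interval 0.43 to 0.51) in LM2 and 0.47 (0.44 to 0.51) in the parental line. The reads were 603 for inclusion and 213 for exclusion in LM2, and 635 and 221 in parental cells, so the levels coincided at good depth. In its paralog TRA2A the 301-nt poison exon, chr7:23522132-23522432, was at 0.51 (0.44 to 0.58) in LM2 and 0.55 (0.48 to 0.62) in the parental line, with 263 and 28 reads against 259 and 30. The intervals overlapped, and the 312-nt form of this exon, which shares its reads, was at 0.50 and 0.55. A second TRA2A exon of 90 nt stayed low at 0.03 and 0.05.

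The small SR proteins SRSF3 and SRSF7, which act in splicing and in export of messenger RNA, had poison exons at low deposited levels. The 456-nt exon of SRSF3, chr6:36599821-36600276, was at 0.09 (0.08 to 0.10) in LM2 and 0.11 (0.10 to 0.12) in the parental line, with 801 inclusion and 106 exclusion reads against 1132 and 127. The intervals met at their bounds, the authors' deposited table gave a Bayes factor of 6.66, below the limit of 10, and the odds ratio of the reads, inclusion over exclusion in LM2 over parental, was 0.848 (exact 95% interval 0.639 to 1.13). A 98-nt exon of SRSF3 was at 0 in both lines. The 449-nt exon of SRSF7, chr2:38748898-38749346, was at 0.10 in both lines, with 352 and 459 reads in LM2 and 384 and 531 in parental cells. Its shorter 276-nt form was at 0.04 and 0.06 and a 69-nt exon at 0 and 0.01, so none of the SRSF7 poison exons reached a deposited level of 0.2. From inclusion and exclusion reads alone, with inclusion reads divided by 2, levels were higher. The 449-nt exon of SRSF7 was then at 0.277 in LM2 and 0.266 in parental cells, and the 456-nt exon of SRSF3 at 0.791 and 0.817. Dividing by 2 takes no account of exon length, so such levels run high for long exons. The SRSF3 exon held 801 inclusion reads over 456 nt in LM2, beside 1822 reads fitting both isoforms over 174 nt of flanking exons. In parental cells these reads numbered 1132 and 2089.

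SRSF4 and SRSF6, larger SR proteins with 2 RNA recognition motifs, had poison exons at similar low deposited levels. The 195-nt exon of SRSF4, chr1:29159864-29160058, was at 0.12 (0.09 to 0.16) in LM2 and 0.14 (0.11 to 0.17) in the parental line, with 61 inclusion and 122 exclusion reads against 91 and 173. The 268-nt exon of SRSF6, chr20:43459153-43459420, was at 0.14 (0.12 to 0.16) and 0.16 (0.14 to 0.18), with 264 and 125 reads against 361 and 141. In both genes the deposited intervals overlapped. The 228-nt exon of SRSF4 was at 0.11 and 0.12. The 90-nt exon of SRSF9, a short SR protein, was at 0 in both lines with 2 and 3 inclusion reads.

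SRSF11, an SR-related protein of the spliceosome, had a pair of poison exons in one intron at higher levels. The 109-nt exon, chr1:70231095-70231203, was at 0.12 (0.07 to 0.18) in LM2 and 0.20 (0.14 to 0.26) in the parental line, from 18 inclusion and 40 exclusion reads against 37 and 39. The 117-nt exon, chr1:70231859-70231975, was at 0.33 (0.25 to 0.42) and 0.37 (0.30 to 0.45), from 61 and 40 reads against 82 and 39. The difference of -0.08 in the 109-nt exon was the lowest among the poison exons, yet the intervals overlapped and the odds ratio was 0.477 (0.217 to 1.03). The levels of both exons depended on the pair of flanking exons they were measured with. Another event of the 109-nt exon, with 5 and 4 exclusion reads, gave 0.45 in LM2 and 0.49 in parental cells, and another of the 117-nt exon, with no exclusion read, gave 0.94 and 0.93. A 33-nt exon of SRSF11 was at 0.01 in both lines.

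Poison exons in the other genes of the set were as little changed. SREK1, a regulator of splicing with RS domains, had its 124-nt exon, chr5:66158809-66158932, at 0.25 (0.18 to 0.32) in LM2 and 0.20 (0.14 to 0.26) in the parental line, from 42 and 32 reads against 41 and 38. A 2868-nt form that contains it was at 0.76 and 0.70, from 3571 inclusion reads in LM2 and 3673 in parental cells but the same 32 and 38 exclusion reads. In RSRC2 the 124-nt exon was at 0.29 and 0.25 on 1 and 2 exclusion reads, the 108-nt exon was at 0.02 and 0.01, and the 187-nt exon, a longer form of a 157-nt coding exon, was at 0.98 in both. The poison exons of RSRC1 (178 nt, 0.01 and 0.01), SRRM1 (130 nt, 0.05 and 0.05) and SRRM2 (95 nt, 0.03 and 0.03) had low levels in both lines. ACIN1 had a 1358-nt poison exon at 0.05 and 0.04 as deposited, yet inclusion reads outnumbered exclusion reads, 293 to 56 in LM2 and, in the parental line, 441 to 95. Its inclusion reads could lie anywhere over 1358 nt. On 185 nt of flanking exons, 451 reads in LM2 and 721 in parental cells fitted both isoforms. CLK4 had a poison exon of 836 nt at 0.31 (0.25 to 0.39) in LM2 and 0.27 (0.23 to 0.33) in the parental line, from 132 and 22 reads against 170 and 27.

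**Figure D2:**
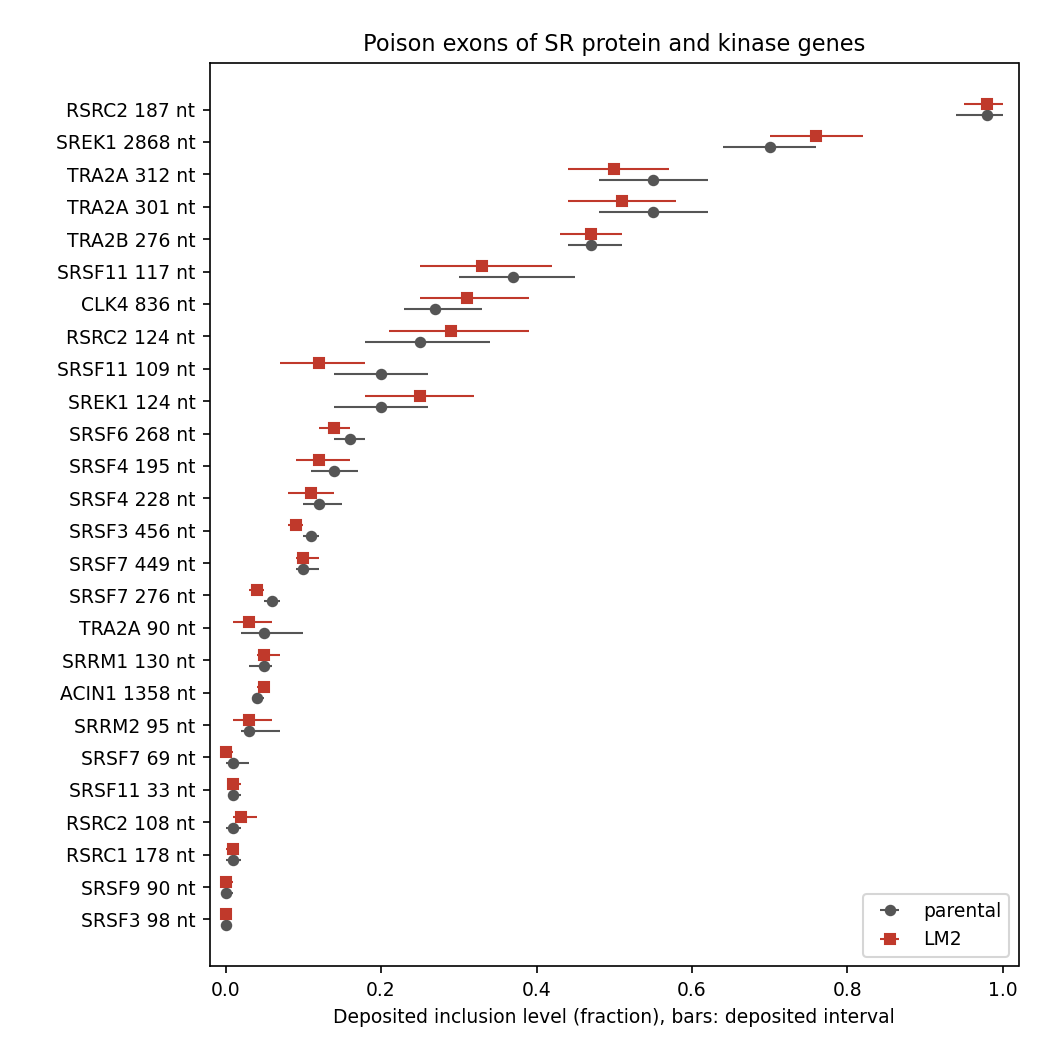
Deposited inclusion level of the 26 poison exons, as a fraction, in LM2 and parental cells, with bars for the deposited intervals, 1 line per exon. The intervals of the lines met or overlapped in each of the 26 exons, and the plotted levels run from 0 to 0.98.

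The signs of these small differences are given by gene group, a grouping made after the values were known and not tested. In SRSF and TRA2 genes, 11 of 16 poison exons were lower in LM2, 5 were at 0 and none was higher, with a median of -0.02. That count depends on the poison rule. The 104-nt exon of SRSF2 and the 79-nt exon of TRA2A occur in decay transcripts but fall outside it, and were higher by 0.06 and 0.04. The TRA2A exons of 312, 301 and 90 nt, with differences of -0.05, -0.04 and -0.02, fall inside the rule without an annotated decay transcript. In the other genes of the set, 6 of 10 poison exons were higher, 4 were at 0 and none was lower, with a median of 0.01. Over all 3035 poison exons compared, 1356 were higher, 635 at 0 and 1044 lower. By reads, 12 of the 16 odds ratios were below 1 and 8 of the 10 above 1, and no interval of an odds ratio among the 26 excluded 1. Overlapping exons of a gene share reads, so the 26 exons are not 26 separate measurements.

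SRSF2 and SRSF10 had exons whose reads differed more clearly. SRSF2 promotes splicing through exonic enhancers, and its 104-nt exon, chr17:76735772-76735875, lies beyond the stop codon, in annotated transcripts that include targets of nonsense-mediated decay. Its level was 0.42 (0.38 to 0.46) in LM2 and 0.36 (0.31 to 0.40) in the parental line, a difference of 0.06 for which the authors' deposited table gave a Bayes factor of 0.55. The reads went the other way, with 346 for inclusion and 160 for exclusion in LM2 against 228 and 70, and an odds ratio of 0.664 (0.471 to 0.931). Reads fitting both isoforms, which enter the deposited level only, numbered 1515 in LM2 and 1609 in parental cells. The deposited level and the reads thus gave opposite directions for SRSF2, and the cause was not tested.

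SRSF10 is an SR protein that represses splicing when dephosphorylated, as in heat shock. Its 102-nt exon, chr1:23971338-23971439, which overlaps coding sequence but matches no annotated exon exactly, fell by 0.12, from 0.42 (0.38 to 0.45) in the parental line to 0.30 (0.27 to 0.33) in LM2. The authors' deposited table gave this exon a Bayes factor of 33488321874.59. The reads moved the same way, 294 for inclusion and 610 for exclusion in LM2 against 409 and 526, with an odds ratio of 0.620 (0.510 to 0.753). Together with ZRANB2, described below, SRSF2 and SRSF10 made 3 of 71 exons lower in LM2 by an odds-ratio interval that excludes 1, beside 3.1% of all exons, and ACIN1 was the 1 exon of 71 that was higher, beside 3.12%. These intervals cover counting error only and compare the libraries.

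CLK1 and CLK4 each have a coding exon of 91 nt, and skipping it shifts the frame ahead of the kinase domain and yields a truncated, inactive form. The exons of CLK1 and CLK4 are shown whole, 5′ to 3′, with the bases that differ between them in capitals, because their likeness bears on where reads can be placed.
CLK1 exon of 91 nt, chr2:200860125-200860215, reverse strand: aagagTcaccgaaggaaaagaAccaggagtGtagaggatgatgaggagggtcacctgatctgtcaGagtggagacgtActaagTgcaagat
CLK4 exon of 91 nt, chr5:178617344-178617434, reverse strand: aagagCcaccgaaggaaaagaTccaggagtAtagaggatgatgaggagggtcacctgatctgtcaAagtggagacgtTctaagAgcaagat
The exons were identical at 85 of 91 positions, or 93.4%, and how reads that fit both genes were treated is not stated in the labels or files used here. In CLK1 the exon was at 0.79 (0.68 to 0.87) in LM2 and 0.82 (0.71 to 0.94) in the parental line, from 178 inclusion and 6 exclusion reads against 166 and 3. In CLK4 it was at 0.88 (0.73 to 0.98) in LM2 and 0.71 (0.59 to 0.82) in the parental line, from 55 and 2 reads against 76 and 11. The CLK4 difference of 0.17 carried, in the authors' deposited table, a Bayes factor of 1.39, and it had overlapping intervals and an odds ratio of 3.95 (0.813 to 38.1), so it was not separable at this depth.

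The remaining kinase exons spanned the whole range of levels without a change that passed. CLK2 exons of 88 and 85 nt, alternative ends of one exon, were at 0.41 and 0.37 in LM2 and at 0.35 and 0.29 in parental cells, on 5 and 11 exclusion reads for the 88-nt form. A 161-nt exon of CLK1 was at 0.99 and 1.00, a 97-nt exon of CLK3 at 0.97 and 0.94, and a 41-nt exon of CLK4 at 0.07 and 0.03. In SRPK1, the main cytoplasmic SR protein kinase, a 214-nt exon was at 0.44 (0.41 to 0.46) in LM2 and 0.49 (0.46 to 0.51) in the parental line, although only 2 and 0 exclusion reads stood against 1473 and 2380 inclusion reads. Its 96-nt exon was at 0.03 in both lines, from 60 and 464 reads in LM2 and 93 and 768 in parental cells. SRPK2 had a 93-nt exon at 0.64 and 0.63 and another of 93 nt at 0.15 and 0.22, the latter on 26 reads in LM2 and 32 in parental cells.

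ZRANB2, a zinc finger protein with an RS domain that binds 5′ splice sites, had the largest decrease. Its 75-nt exon, chr1:71065678-71065752, holds the end of the coding sequence of an annotated transcript, whose stop codon begins at base 32 of the exon. The level was 0.39 (0.31 to 0.49) in LM2 and 0.62 (0.53 to 0.71) in the parental line, a difference of -0.23 where the authors' deposited table put the Bayes factor at 16.9. The reads were 54 for inclusion and 40 for exclusion in LM2 against 110 and 27, an odds ratio of 0.333 (0.176 to 0.621). Deposited level and reads thus fell together in this exon.

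ACIN1, a protein of the exon junction complex known as Acinus, had an exon that rose by level and by reads. Its 62-nt exon, chr14:23071125-23071186, holds the first coding bases of 1 annotated protein-coding transcript, and read in the frame of the upstream exon it meets a stop codon at base 8. The level was 0.36 (0.29 to 0.44) in LM2 and 0.17 (0.13 to 0.21) in the parental line, a difference of 0.19 in the authors' deposited table. The reads were 84 for inclusion and 37 for exclusion in LM2 against 66 and 109, an odds ratio of 3.73 (2.23 to 6.34). From inclusion and exclusion reads alone the difference was 0.299, which put ACIN1 past the limit of 0.2.

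RSRC1, an RS-domain protein that takes part in splicing, had the largest difference in level, with hardly any exclusion reads. The 174-nt coding exon, chr3:158203072-158203245, was at 0.82 (0.72 to 0.92) in LM2 and 0.51 (0.45 to 0.58) in the parental line, a difference of 0.31 in the authors' deposited table. Only 1 exclusion read was counted in each line, beside 553 inclusion reads in LM2 and 484 in parental cells, and the level from these reads alone was 0.996 in both. Reads fitting both isoforms, which fall on the flanking exons, numbered 330 in LM2 and 479 in parental cells, or 0.597 and 0.99 per inclusion read. The change in RSRC1 thus moved with the ratio of flanking to inclusion reads, and the origin of those flanking reads was not tested.

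**Figure D3:**
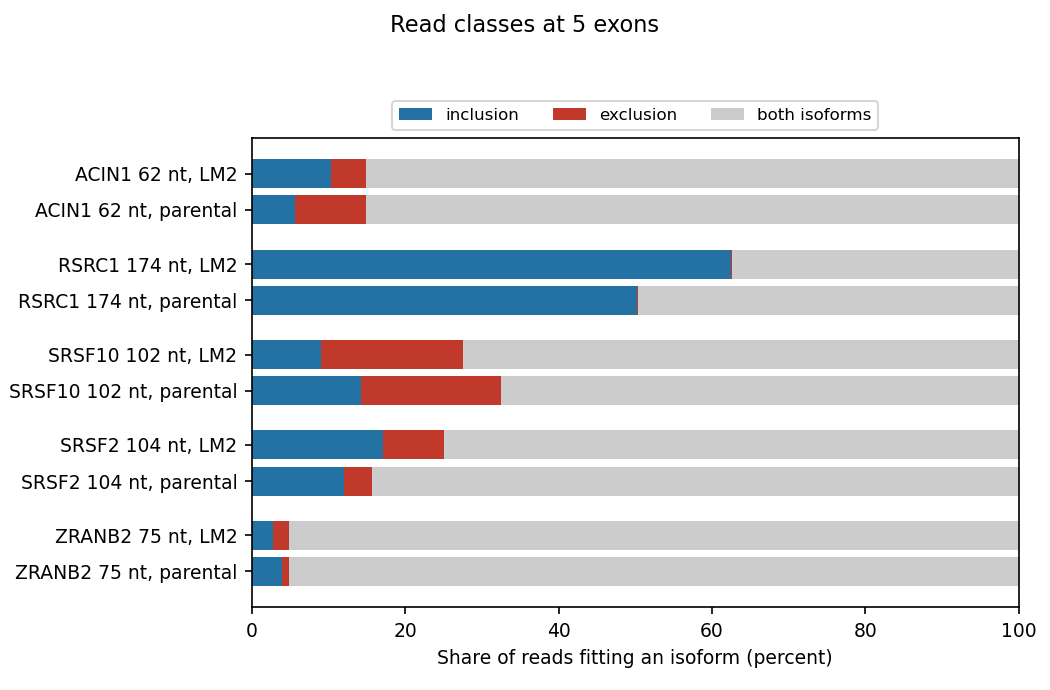
Share of reads, in percent of those fitting an isoform, that fit inclusion, exclusion or both isoforms at 5 exons in LM2 and parental cells. RSRC1 has 1 exclusion read per line and a larger share fitting both in parental cells, whereas ACIN1, ZRANB2, SRSF10 and SRSF2 have exclusion reads in both lines.

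Reads fitting both isoforms weighed on levels across the set. They made up 80.1% of reads fitting an isoform in LM2 and 82.2% in parental cells, beside 66.9% and 68.8% over all compared exons. A single event, the 95-nt exon of SRRM2, held 34710 such reads in LM2, and without it, a setting chosen after seeing the data, the shares were 73.1% and 73.7%. In 47 of 71 exons they outnumbered inclusion and exclusion reads together in parental cells. In parental cells, 10 of 71 exons had a level from inclusion and exclusion reads alone that was more than 0.3 above the deposited one. The 456-nt exon of SRSF3 was one, at 0.09 and 0.11 as deposited and 0.791 and 0.817 by reads, when inclusion reads are divided by 2 for their 2 junctions and not by exon length. The 1358-nt exon of ACIN1 was another, at 0.724 and 0.699 by reads, as were the 268-nt exon of SRSF6, at 0.514 and 0.561, the 124-nt exon of RSRC2, at 0.957 and 0.917, and the 836-nt exon of CLK4, at 0.75 and 0.759. The levels of these exons therefore depended on the method, while their differences between the lines were under 0.05 by both.

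Of the 4 exons called at 0.1, those of RSRC1, ZRANB2 and ACIN1 are coding, and the other coding exons were not called. Both calls at 0.2 fell among the 19 coding exons of a length divisible by 3, beside 50 higher and 21 lower among 3657 such exons of all genes. The ZRANB2 exon ends a coding sequence, so its length does not mean that it keeps the frame. Among the uncalled coding exons, the 42-nt exon of SRRM1, a splicing coactivator, was at 0.84 (0.69 to 0.96) in LM2 and 0.74 (0.62 to 0.85) in the parental line, from 50 and 3 reads against 54 and 7. The 142-nt exon of RNPS1, an activator of splicing that joins the exon junction complex, was at 0.77 (0.68 to 0.85) and 0.69 (0.62 to 0.77) with 2 exclusion reads in each line. The 78-nt exon of RSRC2 was at 0.15 and 0.17, from 49 and 50 reads against 68 and 39, and its odds ratio was 0.564 (0.310 to 1.02). The intervals of all of these overlapped or, for the odds ratio, held 1. Exons near full inclusion in both lines included SRSF4 (90 nt, 0.92 and 0.94), SRSF7 (36 nt, 0.93 and 0.96), SRSF10 (54 nt, 0.99 and 0.98), TRA2B (134 nt, 0.97 and 0.97), SCAF4 (45 nt, 0.98 and 0.97) and SRRM2 (273 nt, 0.99 and 0.99). Exons at a low deposited level included SCAF8 (63 nt, 0.17 and 0.16), SCAF11 (1545 nt, 0.07 and 0.05) and ACIN1 (120 nt, 0.08 and 0.06).

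Levels differed by class of exon. The median parental level was 0.115 in the 26 poison exons, 0.74 in 19 coding exons whose length was divisible by 3, 0.82 in 13 coding exons of other length and 0.03 in 11 non-coding or untranslated exons. Over all compared exons the same medians were 0.05, 0.76, 0.90 and 0.17. The poison exons lay at an intermediate level in 14 of 26 cases, or 53.8%, beside 33.7% of all poison exons. Exons of a length divisible by 3 made up 36 of 71, or 50.7%, beside 42.4% of all exons. Among the poison exons 13 of 26 had such a length, beside 32.5% of all poison exons. These shares describe the set and carry no test.

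**Figure D4:**
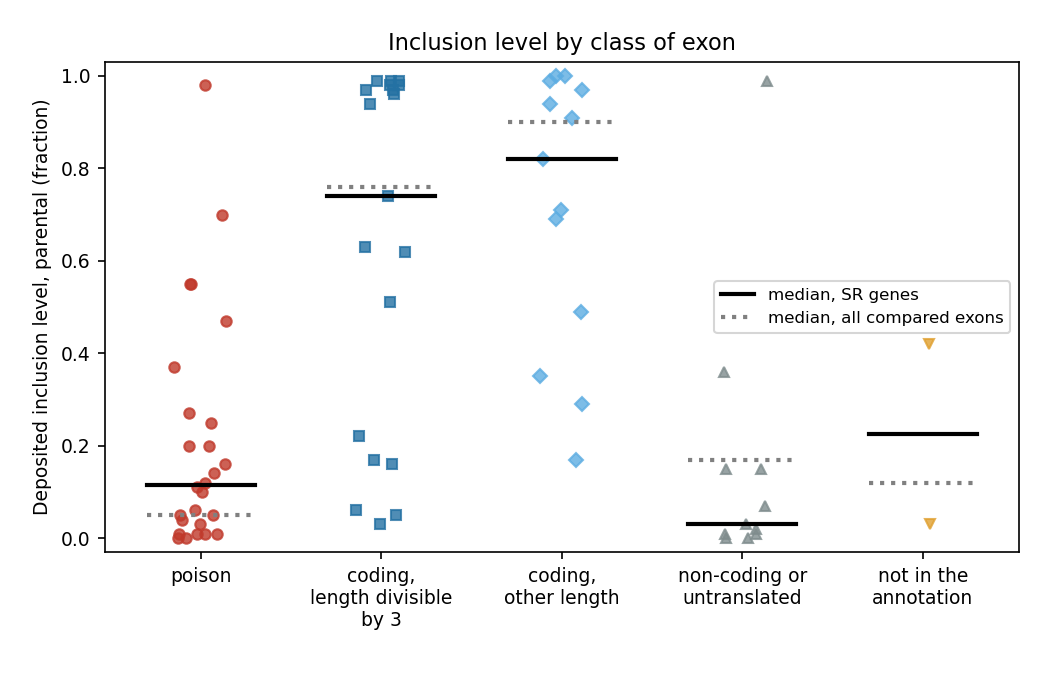
Deposited inclusion level in parental cells, as a fraction, of the 71 exons by class, with a solid line for the median of the set and a dotted line for that of all compared exons. Poison exons have a median of 0.115 beside 0.05 over all poison exons, and coding exons of either length lie mostly high.

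The set included exons that could not be compared. Of 20 such exons, 11 had no exclusion read, 4 had no inclusion read, 3 had too few reads and 2 lay in more than 1 gene. SRSF1, the founding SR protein, had its 351-nt exon among the latter, and PNN, a coactivator of the exon junction, had a 95-nt exon with 356 and 565 inclusion reads and no exclusion read, so neither gene entered the comparison.

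Reads at the best covered event of a gene, scaled to the library totals, served as a rough measure of its transcript level. In it, fewer cells that express the gene and less RNA per cell cannot be told apart. The measure counts inclusion reads, so it also moves with the splicing of that event. None of the 28 genes with at least 20 such reads passed a 1.5-fold change, beside 8.65% of all genes that were higher in LM2 and 18.7% that were lower. All 28 also had at least 100 reads. The shares over all genes take in genes with as few as 20 and were not matched for depth. The median ratio of LM2 to parental reads was 1.02 in the set and 0.919 over 8825 genes. SRSF2 was highest at 1.33 (exact 95% interval 1.24 to 1.41), from 2021 and 1907 reads, followed by SRSF10 at 1.29 (1.24 to 1.35) and CLK1 at 1.27 (1.17 to 1.38). CLK2 was lowest at 0.667 (0.572 to 0.777), from 261 and 489 reads, just inside the limit, followed by SRRM2 at 0.766 (0.756 to 0.777). TRA2B and TRA2A stood at 1.20 and 1.19, while SRSF3 stood at 0.990. Among the genes with a changed exon, ZRANB2 was at 0.863, ACIN1 at 0.796 and RSRC1 at 1.15. In ZRANB2 and RSRC1 the best covered event was the changed exon itself, and in SRSF2 it was the 104-nt exon whose reads differed. The level and the gene ratio share reads there, so their directions were not compared. In ACIN1 and SRSF10 the ratio came from another exon, and its direction differed from that of the changed exon.

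**Figure D5:**
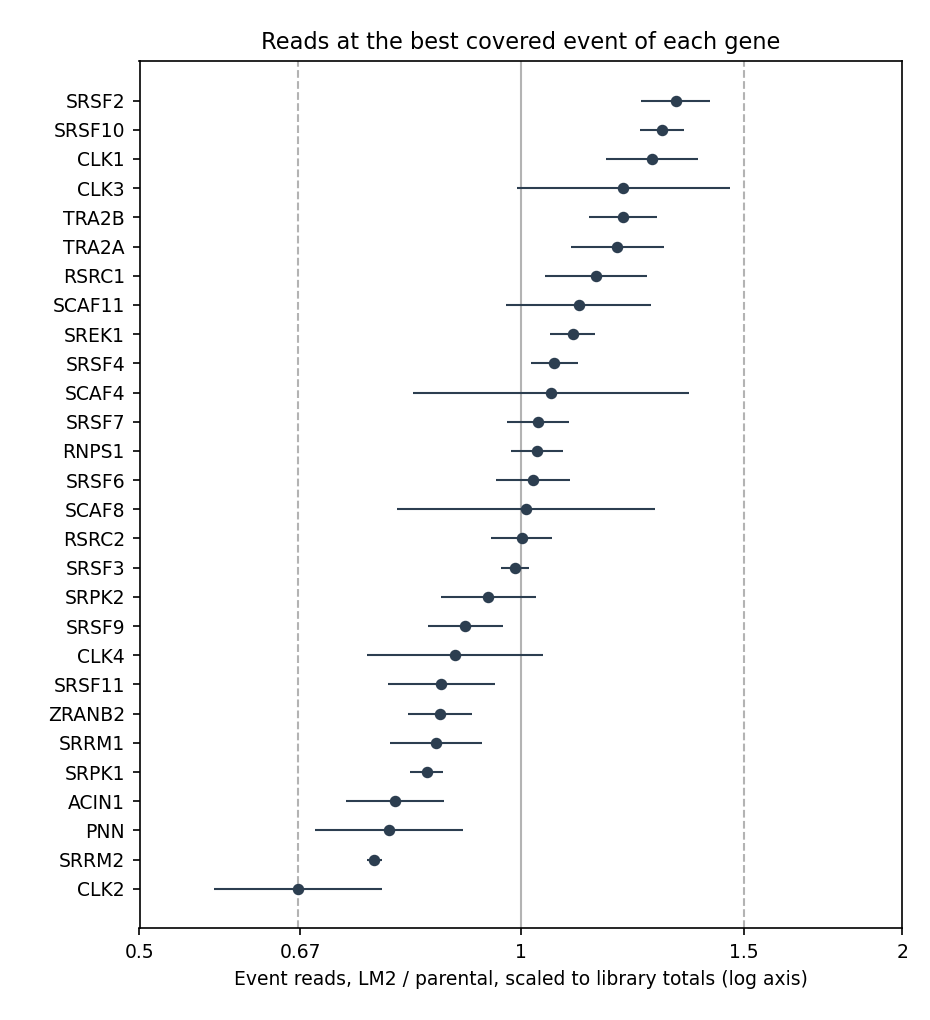
Ratio of LM2 to parental reads at the best covered event of the 28 genes, on a log axis, with exact 95% intervals that cover counting error only. The points run from 0.667 in CLK2 to 1.33 in SRSF2, and none passes 1.5-fold.

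Genes that act with SR proteins gave similar counts. Of 27 exons in 8 of 15 genes of nonsense-mediated decay and the exon junction complex, none passed a difference of 0.2 and 1 passed 0.1. That exon was the 99-nt exon of UPF3A, which bridges the exon junction complex to UPF2, at 0.61 in LM2 and 0.75 in parental cells. Among 78 exons in 26 of 31 further SR-related and partner genes, 1 passed 0.2, and 2 rose and 1 fell at 0.1. The exons that rose were the 5916-nt exon of SON, a large RS-domain scaffold of nuclear speckles, at 0.39 and 0.19 on 1 exclusion read per line, and the 90-nt exon of RBM39, at 0.52 and 0.41. In RBM39 the share of inclusion reads did not rise, with 561 for inclusion and 5 for exclusion in LM2 against 624 and 3. The exon that fell was the 147-nt exon of BCLAF1, at 0.73 and 0.85, and its reads fell too, with 1025 and 100 against 1472 and 91. None of 27 of these genes passed 1.5-fold in reads, and 1 of 10 in the decay list was higher.

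The hnRNPs, RNA-binding proteins that often oppose SR proteins, were the closest family for comparison. Of their 55 exons in 18 genes, none passed 0.2. At 0.1 the level of the 57-nt exon of PTBP1 rose, at 0.76 in LM2 and 0.58 in parental cells. The share of inclusion among its reads did not rise, with 321 for inclusion and 38 for exclusion in LM2 against 248 and 27. The 105-nt exon of HNRNPDL fell by level, at 0.53 and 0.68, and by reads, 302 and 217 against 332 and 120. The median difference was 0 in both families, and 45.5% of hnRNP exons were intermediate beside 45.1% in the set. Poison exons made up 3 of 55 hnRNP exons, or 5.45%, against 26 of 71 in the set, a difference in the makeup of the events that was not tested.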

How the data were processed

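RNA-seq of parental MDA-MB-231 and MDA-LM2 cells, 2 samples per line, was used as deposited. Per the submitters' processing notes, reads were aligned to hg38 with STAR 2.7. Per the file headers, MISO estimated the inclusion of skipped exons. Its version, its settings and the pooling of replicates: not given in the sources used here. Each deposited table gives the inclusion level as a fraction, with interval bounds, and read counts in 4 classes (inclusion, exclusion, both, neither). The authors' deposited table of the comparison gives the difference, a score of LM2 minus parental, and the Bayes factor, a ratio of odds.

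The members and lists were chosen with earlier results of these data known. Compared exons had 10 or more reads for inclusion and exclusion together in each of the libraries, with 1 or more of each kind over both, lay inside 1 gene, and were represented by the event with most such reads. Read-based levels divided inclusion reads by 2. Odds ratios carry exact conditional 95% intervals (R 4.3.3), and gene ratios exact binomial ones, scaled to reads fitting an isoform. Both cover counting error only and compare libraries. The odds ratio intervals were tested on simulated data for 12981 exons, with 200 given an odds ratio of 4, and held the true value in 98.5% of unchanged and 97% of changed exons. The simulated reads varied by counting error alone, for which exact intervals are built, so the outcome checks the computation and not variation between replicates. GENCODE release 29 gave genes, classes and sequences. Tools were Python 3.11.15, pandas 2.3.3, scipy 1.17.1 and matplotlib 3.10.9.

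Exons were named if called at 0.2 or 0.1, if poison, if among the 10 largest differences with at least 20 informative reads per library, if of CLK1 or CLK4 at intermediate level, or if the best covered intermediate exon of a member. Genes were named for read ratios at the extremes. Alternatives varied the read minimum, difference, Bayes factor, event choice, gene overlap, level definition, poison rule, intermediate range and gene scaling. Counting 1 exon per overlap group, leaving out poison exons that overlap coding sequence and requiring 10 exclusion reads were chosen after seeing the data.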

Additional observations from a re-analysis of the deposited data

How the results depend on the processing

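No paired analysis was possible because each line has 1 table with no values per replicate, and leaving out a replicate was not possible for the same reason. The count of changed exons, 2 in the main setting, became 4 with a difference of 0.1, 1 with a difference of 0.3, 1 with the Bayes factor limit at 20, and 1, ZRANB2, when 10 exclusion reads over both libraries were required, a setting chosen after seeing the data. Exons of intermediate level numbered 21 instead of 32 with limits of 0.2 and 0.8. By reads alone 2 exons also passed, but they were ACIN1 and ZRANB2, not RSRC1, whose difference by reads was 0.0005. Under the remaining alternatives the count of changed exons was 2, median differences of the set and of its poison exons lay between -0.0017 and 0, exons of intermediate level numbered 26 to 34, and no gene passed its fold limit. Depth limits exons with few exclusion reads: 16 of the 71 had fewer than 10 over both libraries.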
